A study of Mus with 2 samples.

Results

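The genes described here handle fatty acids on their way from the blood vessel into the brown adipocyte. They were 9 of the 32285 genes in the files, chosen by name for their roles: *Lpl*, *Gpihbp1* and *Angptl4* for the release of fatty acids from lipoproteins, *Cd36* and *Slc27a1* for uptake, *Fabp4* and *Fabp5* for binding inside the cell, and *Vldlr* and *Lrp1* for lipoprotein binding. Their levels were compared between classes of nuclei of interscapular brown adipose tissue (iBAT) and between the 2 libraries of an snRNA-seq experiment, in which the RNA of single nuclei is barcoded in droplets and counted as unique molecules (UMIs). All 9 had counts in both libraries, in every class compared.

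Both libraries came from C57BL/6 mice on normal chow at 8 weeks of age, and all of these mice carried floxed *Wtap* alleles. The *Wtap* flox/flox library had no Cre, while the library labelled *Wtap*-BKO came from *Wtap* flox/flox mice with UCP1-iCre, a Cre driven from the *Ucp1* locus and so aimed at thermogenic adipocytes, not at vessel, immune or stromal cells. WTAP is a subunit of the complex that writes the RNA mark m6A. Each library pooled nuclei of 4 mice, which leaves 1 library per genotype and no replicate, so no test between genotypes was possible and no p-value is given.

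Triglyceride in blood travels in lipoproteins, and brown fat is one of the tissues that clears it fastest. Lipoprotein lipase (LPL) is made by adipocytes and other parenchymal cells, but it works on the inner face of capillaries, where it is carried and held by GPIHBP1 of the endothelial cell. ANGPTL4 unfolds and inactivates LPL. The fatty acids set free are then taken up with the help of CD36, in endothelium and adipocyte alike, and of FATP1, the protein of *Slc27a1*. FABP4 and FABP5 carry them through the cytosol. VLDLR and LRP1 are endocytic receptors that bind whole lipoproteins and remnants, and LRP1 has many other ligands.

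Per RefSeq (GRCm38.p6), *Lpl* lies at chr8:68880555-68906932, *Slc27a1* at chr8:71568728-71587307, *Gpihbp1* at chr15:75596630-75598213, *Angptl4* at chr17:33774900-33781575 and *Cd36* at chr5:17781690-17888959. *Fabp5* (chr3:10012585-10016610) and *Fabp4* (chr3:10204342-10208616) are neighbours in one cluster of binding protein genes. *Vldlr* (chr19:27216480-27254231) and *Lrp1* (chr10:127538157-127621148) each overlap other annotated transcripts, so some of their UMIs may belong to those. *Fabp5* has pseudogene copies in the genome, among which its reads could be split, and its counts are uncertain to that extent.

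*Wtap*, the targeted gene, had nearly the same level in both libraries. Its level, in UMIs per 1000000 UMIs (CPM), was 51.4 in the *Wtap* flox/flox library, from 554 UMIs, and 52.6 in the library labelled *Wtap*-BKO, from 734 UMIs. In adipocyte-like nuclei it had 50.02 and 49.2 CPM. The kit reads the 3′ ends of transcripts, outside the deleted exon, so this checks neither label, and each direction between the libraries rests on the labels alone. The *Wtap* flox/flox library held 9494 nuclei with a median of 954 UMIs, and the library labelled *Wtap*-BKO held 8772 nuclei with a median of 1306 UMIs. They also differed in mitochondrial RNA, with 33.0% and 74.8% of nuclei above 5% mitochondrial UMIs. There were 20 barcodes present in both libraries.

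Classes were named from marker genes fixed for 16 cell types, after clustering without the 9 genes. Adipocyte-like nuclei made up 70.9% of nuclei in the *Wtap* flox/flox library and 56.2% in the library labelled *Wtap*-BKO, endothelial-like nuclei 12.2% and 8.93%, macrophage-like nuclei 3.05% and 12.7%, and fibroblast-like nuclei 3.34% and 6.68%. The macrophage-like cluster also carried dendritic cell markers, the fibroblast-like cluster included Schwann cell markers, and the pericyte-like cluster smooth muscle markers. T cell-like nuclei (120 and 744) served as a background, since T cells are not known for most of these genes. Markers of adipocytes were found in every other class: in the *Wtap* flox/flox library the 12 markers together reached 8007 CPM in adipocyte-like nuclei, with 54.9% of that level in endothelial-like, 49.8% in macrophage-like, 41.0% in fibroblast-like and 67.6% in T cell-like nuclei. In the library labelled *Wtap*-BKO the level was 10311 CPM and the shares were 38.7%, 31.5%, 30.5% and 38.6%. The median depth was 989 and 1472 UMIs in adipocyte-like, 869 and 785 in endothelial-like, 955 and 1548.5 in fibroblast-like and 1030.5 and 980 in T cell-like nuclei. A level in a non-adipocyte class is therefore given beside the level in T cell-like nuclei of the same library. This background itself differed between the libraries in its share of adipocyte markers, and its 10 T cell markers summed to 2351 and 4612 CPM. The part of this difference in ratios to T cell-like nuclei was not tested. Intervals are exact 95% intervals, and they and all limits given hold for counting error alone. How much mice or preparations vary cannot be read from them.

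*Lpl*, the lipase itself, was found in every class, and its order over the classes differed between the libraries. In the *Wtap* flox/flox library endothelial-like nuclei were above adipocyte-like nuclei, with 1012 CPM (95% interval 960 to 1066) against 698 CPM (679 to 717), a log2 difference of 0.54 (0.45 to 0.62). In the library labelled *Wtap*-BKO this was turned, with 919 CPM (854 to 987) in endothelial-like and 1358 CPM (1333 to 1384) in adipocyte-like nuclei. Fibroblast-like nuclei had 777 and 1392 CPM and macrophage-like nuclei 449 and 715 CPM. Adipocyte- and fibroblast-like nuclei overlapped in their intervals in both libraries. The T cell-like background was high, at 621 and 562 CPM. Against it, adipocyte-like nuclei stood at a log2 difference of 0.17 (-0.13 to 0.49) in the *Wtap* flox/flox library, which includes no difference, and at 1.27 (1.15 to 1.40) in the library labelled *Wtap*-BKO. An unnamed cluster led by mitochondrially encoded genes had more *Lpl* than any named class, with 1261 and 1585 CPM.

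Between the libraries, *Lpl* was 0.96 higher on the log2 scale (0.91 to 1.01) in adipocyte-like nuclei of the library labelled *Wtap*-BKO, 0.84 higher (0.67 to 1.02) in fibroblast-like and 0.67 higher (0.42 to 0.93) in macrophage-like nuclei. Endothelial-like nuclei went the other way, with a log2 ratio of -0.14 (-0.27 to -0.01), and T cell-like nuclei had the same value with a wider interval (-0.47 to 0.19). The endothelial ratio was lower than the adipocyte ratio by a log2 difference of -1.10 (-1.24 to -0.96). This endothelial value did not hold across the class: it was -0.40 in cluster 4 and 0.14 in cluster 5, the 2 clusters that make up the class, and 0.03 where nuclei were classed one by one from markers. Other markers in adipocyte-like nuclei moved with *Lpl*: the 11 fibroblast markers summed to 205 and 584 CPM and the 11 macrophage markers to 78.7 and 166 CPM, each of them higher in the library labelled *Wtap*-BKO, none at 0 in either library, and their part in the difference was not tested. In fibroblast-like nuclei the 11 fibroblast markers, all higher in that library, summed to 5797 and 12036 CPM. The 7 Schwann cell markers there, of which 1 was higher, summed to 934 and 410 CPM. The part of this difference in make-up in the fibroblast-like ratios of *Lpl* and the other genes was not tested. In macrophage-like nuclei the 10 dendritic cell markers, 7 of them higher, summed to 2351 and 4240 CPM. The 11 macrophage markers there, 4 of them higher, summed to 3776 and 3913 CPM. Against T cell-like nuclei, macrophage-like *Lpl* stood at a log2 ratio of -0.47 (-0.86 to -0.07) and 0.35 (0.20 to 0.50). The part of make-up and background in the macrophage-like ratios was not tested. When each nucleus was thinned to 1000 UMIs, which left out the shallower 3455 and 1102 adipocyte-like and 59 and 383 T cell-like nuclei, the share of adipocyte-like nuclei with an *Lpl* UMI was 47.5% and 68.6% (unthinned 49.3% and 78.6%), against 44.3% and 36.6% of T cell-like nuclei (unthinned 50% and 39.1%).

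*Gpihbp1*, which carries LPL across the endothelial cell, was the gene with the clearest hold on 1 class. In the *Wtap* flox/flox library endothelial-like nuclei had 228 CPM (203 to 254, from 321 UMIs), and those of the library labelled *Wtap*-BKO had 313 CPM (276 to 354, from 255 UMIs). Adipocyte-like nuclei had 16.4 and 6.97 CPM, and T cell-like nuclei 13.8 and 9.21 CPM from only 2 and 9 UMIs. Endothelial-like nuclei thus stood 13.9-fold and 44.9-fold above adipocyte-like nuclei, while adipocyte-, macrophage- and T cell-like nuclei had overlapping intervals within each library. Next in order were pericyte-like nuclei in the *Wtap* flox/flox library (72.1 CPM) and fibroblast-like nuclei in the library labelled *Wtap*-BKO (39.9 CPM). The 12 endothelial markers summed to 1112 CPM in the former, beside 3890 CPM in endothelial-like nuclei of that library. In the latter they summed to 412 CPM beside 6801 CPM, and the part of endothelial RNA in these *Gpihbp1* levels was not tested. Of all *Gpihbp1* UMIs, 61.7% and 62.0% lay in endothelial-like nuclei, although these gave 13.1% and 5.84% of all UMIs. In thinned nuclei, 15.1% and 17.6% of endothelial-like nuclei had a *Gpihbp1* UMI (unthinned 22.2% and 25.7%), against 1.64% and 1.11% of T cell-like nuclei (unthinned 1.67% and 1.21%).

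The endothelial level of *Gpihbp1* was 0.46 higher on the log2 scale (0.22 to 0.70) in the library labelled *Wtap*-BKO, but not within either of the 2 clusters of the class. Cluster 4 had 386 and 400 CPM (log2 ratio 0.05, -0.26 to 0.36) and cluster 5 had 166 and 156 CPM (-0.09, -0.60 to 0.39). Cluster 4, with the higher level, held 37.0% of the endothelial-like nuclei in the *Wtap* flox/flox library and 77.3% in the library labelled *Wtap*-BKO. Mitochondrial UMIs made up 9.90% and 7.24% of cluster 4 and 18.4% and 18.0% of cluster 5. The 12 adipocyte markers summed to 3290 and 2637 CPM in cluster 4 and to 4828 and 6438 CPM in cluster 5. The part of either in the levels and shares of the 2 clusters was not tested. With the cluster shares exchanged and the levels kept, the log2 ratio was 0.44, and with the levels exchanged and the shares kept it was -0.02. Across all nuclei the gene was lower in the library labelled *Wtap*-BKO, at 29.5 against 48.3 CPM (log2 ratio -0.71, -0.90 to -0.52), and exchange of the class shares alone gave -0.62. In adipocyte-like nuclei the few UMIs (124 and 58) gave a log2 ratio of -1.23 (-1.71 to -0.77). The summed level of the 12 endothelial markers in the same nuclei was 161 and 97.6 CPM, with 1 of the 12 higher in the library labelled *Wtap*-BKO and none at 0 in either, and their part in the *Gpihbp1* value was not tested.

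*Angptl4*, the inhibitor of LPL, was highest in adipocyte-like nuclei in both libraries, with 440 CPM (426 to 455) and 660 CPM (643 to 678). Endothelial-like nuclei had 240 and 384 CPM, macrophage-like nuclei 228 and 203 CPM and fibroblast-like nuclei 185 and 249 CPM. The last 2 classes overlapped in the *Wtap* flox/flox library, and in the library labelled *Wtap*-BKO fibroblast-like nuclei (222 to 279) overlapped macrophage-like nuclei (183 to 225) at the edge of the intervals. In the *Wtap* flox/flox library the endothelial, macrophage and fibroblast levels all overlapped the T cell-like level of 269 CPM (191 to 368) or lay below it, which is background. In the library labelled *Wtap*-BKO endothelial-like nuclei were above it by 0.71 on the log2 scale (0.46 to 0.97). Between the libraries the log2 ratio was 0.58 (0.52 to 0.65) in adipocyte-like and 0.68 (0.46 to 0.91) in endothelial-like nuclei, and the 2 differed by 0.10 (-0.13 to 0.33). Macrophage-like nuclei had a log2 ratio of -0.17 (-0.53 to 0.22). The endothelial value came mainly from cluster 5 (246 and 578 CPM, log2 ratio 1.23), where the 12 adipocyte markers were also higher, at 4828 and 6438 CPM. In cluster 4 *Angptl4* had 223 and 278 CPM (0.32, -0.08 to 0.71) and the adipocyte markers 3290 and 2637 CPM. The part of adipocyte RNA in these values was not tested.

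**Figure D1:**
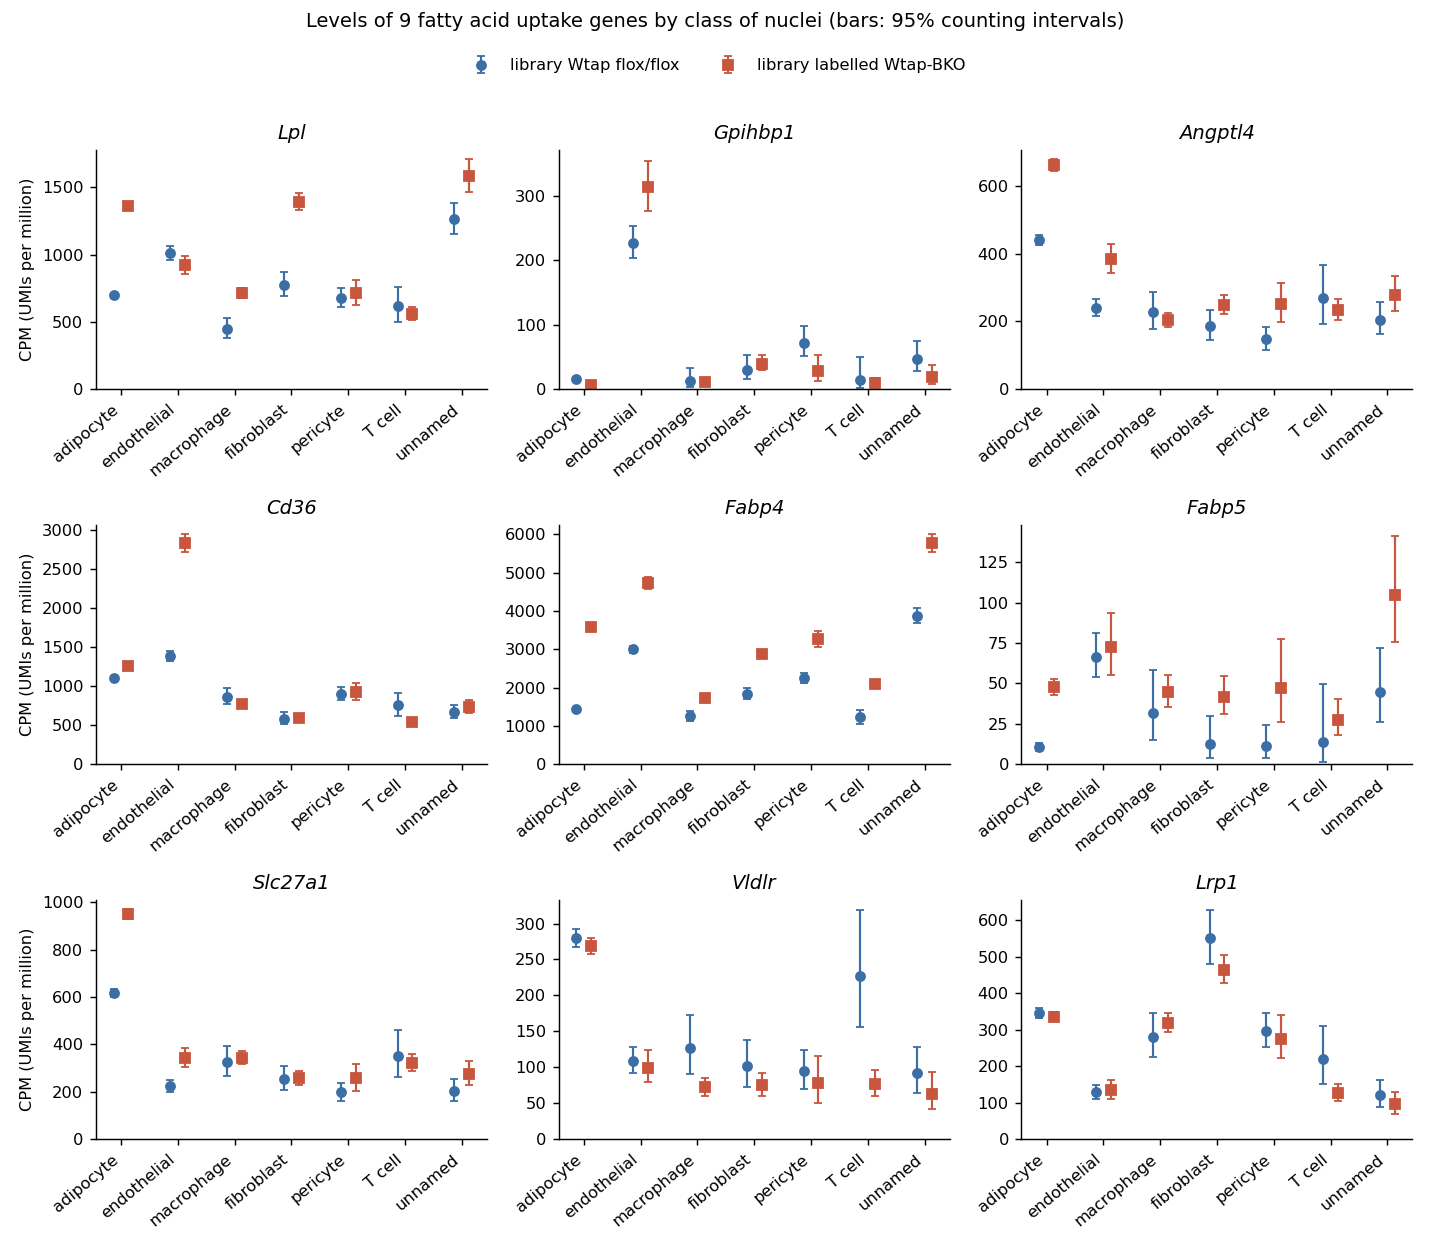
Level of each of the 9 genes in CPM (vertical axis from 0) by class of nuclei, with a circle for the *Wtap* flox/flox library, a square for the library labelled *Wtap*-BKO and bars for 95% counting intervals. *Gpihbp1* stands out in endothelial-like nuclei (228 and 313 CPM), *Cd36* is highest there too (1381 and 2826 CPM), and *Angptl4*, *Slc27a1* and *Vldlr* are highest in adipocyte-like nuclei.

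*Cd36*, the fatty acid translocase, was highest in endothelial-like nuclei and next in adipocyte-like nuclei in both libraries. Endothelial-like nuclei had 1381 CPM (1320 to 1443) in the *Wtap* flox/flox library and 2826 CPM (2712 to 2944) in the library labelled *Wtap*-BKO, and adipocyte-like nuclei 1102 (1079 to 1126) and 1257 CPM (1233 to 1281). Macrophage-like nuclei had 866 and 776 CPM, fibroblast-like nuclei 584 and 586 CPM and T cell-like nuclei 759 and 539 CPM. The fibroblast level thus did not exceed background in either library. On the log2 scale the macrophage level stood 0.53 above it (0.38 to 0.67) in the library labelled *Wtap*-BKO and 0.19 (-0.13 to 0.52) in the other. The fold of endothelial- over adipocyte-like nuclei was 1.25 and 2.25.

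Between the libraries *Cd36* differed far more in endothelial- than in adipocyte-like nuclei. The log2 ratio was 1.03 (0.95 to 1.12) in endothelial-like and 0.19 (0.15 to 0.23) in adipocyte-like nuclei, a difference of 0.84 (0.75 to 0.94). Cluster 4 (1815 and 3465 CPM, log2 ratio 0.93) and cluster 5 (1212 and 1665 CPM, 0.46) both showed it, so that exchange of levels alone gave 0.65 and exchange of cluster shares alone 0.21. In thinned nuclei, 69.7% and 84.5% of endothelial-like nuclei had a *Cd36* UMI (unthinned 70.0% and 88.8%, with 678 and 545 shallower nuclei left out), against 52.5% and 36.0% of T cell-like nuclei (unthinned 50% and 36.0%). The 12 endothelial markers were all higher too, with 3890 CPM in sum in the *Wtap* flox/flox library and 6801 CPM in the library labelled *Wtap*-BKO. The 11 macrophage markers were likewise all higher in these nuclei (143 and 355 CPM, none at 0), and the part of either in the result was not tested. With size factors taken as the median of ratios over genes, which lowered every endothelial log2 ratio by 0.46, the *Cd36* ratio was still positive, as it was under all 15 alternatives (0.46 to 1.59).

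*Slc27a1*, which encodes the transporter FATP1, belonged to the adipocyte-like nuclei, with 618 CPM (600 to 636) and 951 CPM (930 to 972). Endothelial-like nuclei had 223 and 344 CPM, macrophage-like nuclei 325 and 344 CPM and fibroblast-like nuclei 254 and 258 CPM. None of these exceeded the T cell-like level of 352 and 322 CPM beyond counting error. In thinned nuclei, 43.1% and 49.4% of adipocyte-like nuclei had a UMI (unthinned 44.0% and 61.2%), and 18.0% and 25.2% of T cell-like nuclei (unthinned 33.3% and 26.3%). The adipocyte log2 ratio between the libraries was 0.62 (0.57 to 0.67). Cluster 9, an adipocyte-like cluster that held 2.75% of the class in the *Wtap* flox/flox library and 9.69% in the library labelled *Wtap*-BKO, had 2238 and 2818 CPM of *Slc27a1*, and the other 4 clusters had no more than 788 CPM. Without cluster 9 the log2 ratio was 0.27.

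*Fabp4*, the adipocyte binding protein, is also made by capillary endothelium, and endothelial-like nuclei had more of it than adipocyte-like nuclei in both libraries: 3005 CPM (2915 to 3097) against 1447 CPM (1420 to 1474), and 4732 CPM (4583 to 4883) against 3591 CPM (3551 to 3632). Pericyte-like nuclei had 2249 and 3265 CPM, fibroblast-like nuclei 1843 and 2881 CPM and macrophage-like nuclei 1248 and 1723 CPM. The T cell-like level was high, at 1227 and 2089 CPM, and macrophage-like nuclei did not exceed it in either library. Endothelial-like nuclei were 2.45-fold and 2.27-fold above T cell-like nuclei and adipocyte-like nuclei 1.18-fold and 1.72-fold. The unnamed cluster led by mitochondrially encoded genes again had the highest level, with 3882 and 5769 CPM.

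*Fabp4* was higher in the library labelled *Wtap*-BKO in every class compared, T cell-like nuclei included. The log2 ratio was 1.31 (1.28 to 1.34) in adipocyte-like nuclei, 0.65 (0.59 to 0.72) in endothelial-like, 0.65 (0.53 to 0.76) in fibroblast-like, 0.46 (0.31 to 0.62) in macrophage-like and 0.77 (0.55 to 0.996) in T cell-like nuclei. Taken against T cell-like nuclei, the adipocyte ratio was larger by 0.54 (0.32 to 0.77) and the endothelial ratio differed by -0.11 (-0.34 to 0.12). Among the 5 adipocyte-like clusters the log2 ratio ran from 1.02 to 1.38. In thinned adipocyte-like nuclei the share with a UMI was 71.3% and 96.0% (unthinned 73.9% and 98.0%), beside 68.9% and 81.2% of T cell-like nuclei (unthinned 71.7% and 83.1%).

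*Fabp5*, the epidermal binding protein, which is found in endothelium as well, was sparse. In the *Wtap* flox/flox library it was highest in endothelial-like nuclei among the named classes, with 66.6 CPM (53.8 to 81.5, from 94 UMIs), and adipocyte-like nuclei had 10.6 CPM (8.37 to 13.1, from 80 UMIs), a level within the T cell-like interval. In the library labelled *Wtap*-BKO endothelial-like nuclei had 72.5 CPM (55.2 to 93.5) and adipocyte-like nuclei 47.7 CPM (43.1 to 52.6, from 397 UMIs). The endothelial log2 ratio was 0.12 (-0.37 to 0.61), which was -0.34 with median-of-ratios size factors, and the adipocyte log2 ratio 2.18 (1.83 to 2.54), and the 2 differed by -2.05 (-2.64 to -1.47). The share of all *Fabp5* UMIs in endothelial-like nuclei was 43.5% and 8.74%, and the share in adipocyte-like nuclei 37.0% and 58.8%. In fibroblast-like nuclei 5 and 51 UMIs gave a log2 ratio of 1.71 (0.40 to 3.39). T cell-like nuclei had only 2 and 27 UMIs, too few to tell a background from a change. In thinned nuclei, 0.884% and 3.94% of adipocyte-like nuclei had a UMI (unthinned 1.13% and 7.12%), beside 1.64% and 3.05% of T cell-like nuclei (unthinned 1.67% and 3.63%).

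**Figure D2:**
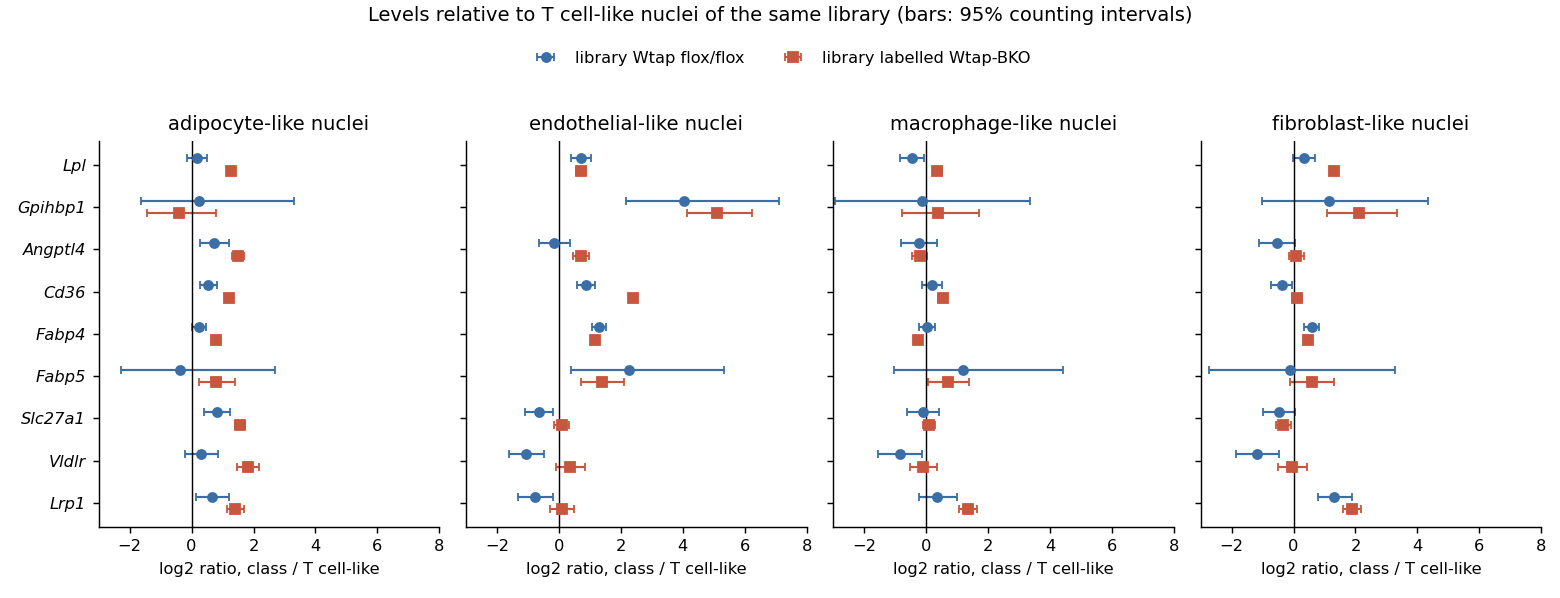
Log2 ratio (horizontal axis) of each gene's level in adipocyte-, endothelial-, macrophage- and fibroblast-like nuclei over T cell-like nuclei of the same library, with bars for 95% counting intervals. Endothelial-like nuclei lie far to the right for *Gpihbp1* (4.04 and 5.09), and macrophage-like nuclei lie near 0 for most genes, with *Lrp1* of the library labelled *Wtap*-BKO at 1.34.

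*Vldlr*, the receptor for very low density lipoprotein, was highest of these 4 classes in adipocyte-like nuclei, with 280 CPM (268 to 292) and 269 CPM (258 to 280). Endothelial-like nuclei had 109 and 99.5 CPM, macrophage-like nuclei 126 and 72.0 CPM and fibroblast-like nuclei 102 and 75.0 CPM, and these 3 classes overlapped in their intervals in both libraries. T cell-like nuclei had 33 UMIs (228 CPM) and 75 UMIs (76.7 CPM). The other 3 classes did not exceed this background beyond counting error in either library. Nor did adipocyte-like nuclei exceed it beyond counting error in the *Wtap* flox/flox library (log2 ratio to T cell-like nuclei 0.30, -0.20 to 0.84). The same ratio was 1.81 (1.48 to 2.16) in the library labelled *Wtap*-BKO. The share of adipocyte markers in T cell-like nuclei also differed (67.6% and 38.6%), and its part in these ratios was not tested. The adipocyte log2 ratio between the libraries was -0.06 (-0.14 to 0.03), with its sign turned to 0.05 when mitochondrially encoded genes and *Gm42418* were left out of the totals, and the ratio was -0.81 (-1.33 to -0.26) in macrophage-like and -1.57 (-2.18 to -0.93) in T cell-like nuclei, the class that gave the background.

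*Lrp1* showed another division, with fibroblast-like nuclei the highest class in both libraries at 551 CPM (480 to 629) and 465 CPM (427 to 504). Adipocyte-like nuclei followed with 346 and 336 CPM, then macrophage-like nuclei with 281 and 319 CPM, and the last 2 classes overlapped in both libraries. This order holds for whole classes only. Adipocyte-like cluster 9 alone had 757 CPM (653 to 871), above the fibroblast-like interval, and 484 CPM (443 to 528), which overlapped it. Endothelial-like nuclei had 129 and 135 CPM, which did not exceed the T cell-like level of 221 and 126 CPM. Macrophage-like nuclei were 1.34 above the T cell-like level on the log2 scale (1.06 to 1.63) in the library labelled *Wtap*-BKO, and 0.35 (-0.25 to 0.98) in the other. In thinned fibroblast-like nuclei, 39.9% and 37.9% had a UMI (unthinned 43.8% and 52.2%, with 169 and 138 shallower nuclei left out), against 24.6% and 11.6% of T cell-like nuclei (unthinned 22.5% and 12.2%). The log2 ratio between the libraries was -0.04 (-0.12 to 0.04) in adipocyte-like, 0.07 (-0.29 to 0.42) in endothelial-like, 0.18 (-0.14 to 0.52) in macrophage-like and -0.25 (-0.47 to -0.01) in fibroblast-like nuclei, the last of which became 0.04 with a minimum of 1000 UMIs per nucleus.

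Counted over the 9 genes, 2 in adipocyte-like nuclei (*Fabp4* and *Fabp5*) were at least 2-fold higher in the library labelled *Wtap*-BKO, where 14.7% of the 14075 genes compared were, and 1 (*Gpihbp1*) was at least 2-fold lower, where 4.27% were. In endothelial-like nuclei 1 gene (*Cd36*) was at least 2-fold higher against 14.8% of all genes, and none was 2-fold lower against 2.71%. In macrophage-like nuclei there was none in either direction, beside 12.3% higher and 6.31% lower of all genes. In fibroblast-like nuclei 1 gene (*Fabp5*) was 2-fold higher and none lower, beside 11.7% and 3.54%. The median log2 ratio of the 9 genes was 0.58 in adipocyte-like nuclei, where that of all genes was 0.07. The medians were 0.46 beside 0.35 in endothelial-like, 0.08 beside 0.07 in macrophage-like and 0.39 beside 0.11 in fibroblast-like nuclei. In endothelial-like nuclei the direction over all genes depended on the scaling. Of the genes past 2-fold, 1386 were higher and 254 lower by total UMIs (84.5% higher), 516 higher and 773 lower with median-of-ratios size factors (40.03%), and 851 higher and 417 lower with mitochondrially encoded genes and *Gm42418* left out of the totals (67.1%). With these size factors the median of the 9 genes there was 0.00, with *Gpihbp1* at 0.00 and *Fabp4* at 0.20. With nuclei of over 5% mitochondrial UMIs removed, the adipocyte median was 0.37 and the endothelial median -0.04, while *Lpl* (1.15), *Fabp4* (1.24) and *Slc27a1* (1.13) in adipocyte-like nuclei and *Cd36* (1.01) in endothelial-like nuclei remained higher in the library labelled *Wtap*-BKO.

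**Figure D3:**
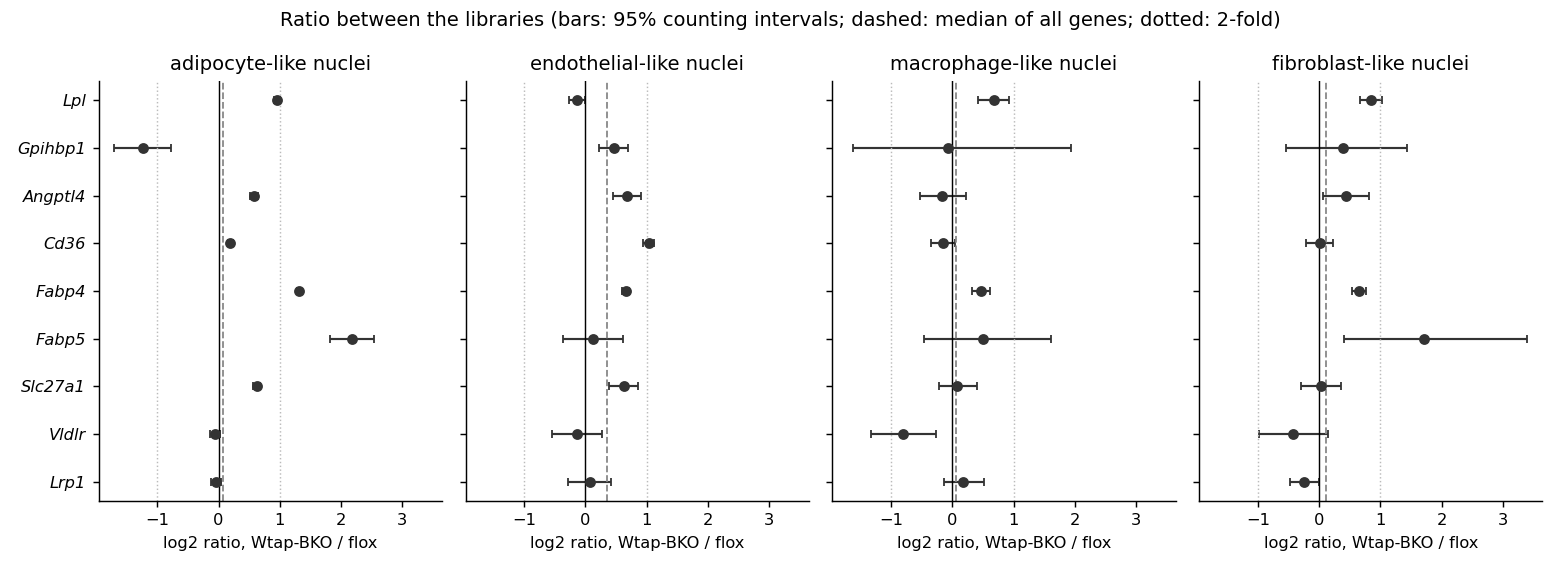
Log2 ratio (horizontal axis, where a value above 0 is higher in the library labelled *Wtap*-BKO) for each gene in 4 classes of nuclei, with bars for 95% counting intervals, a dashed line at the median of all genes and dotted lines at 2-fold. *Fabp5* (2.18) and *Fabp4* (1.31) lie to the right in adipocyte-like nuclei, *Cd36* (1.03) in endothelial-like nuclei, and *Gpihbp1* lies on opposite sides in these 2 classes.

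Genes that act together did not move by the same amount. Over 28 pairs compared, the log2 ratio of *Lpl* in adipocyte-like nuclei exceeded that of its inhibitor *Angptl4* by 0.38 (0.30 to 0.45). In endothelial-like nuclei it was below that of *Angptl4* by a log2 difference of -0.82 (-1.08 to -0.57). In the *Wtap* flox/flox library, however, endothelial *Angptl4* did not exceed the T cell-like level (log2 ratio -0.17, -0.65 to 0.35). The log2 ratios of *Lpl* and *Angptl4* between the libraries were -0.40 and 0.32 in cluster 4, and 0.14 and 1.23 in cluster 5. The part of background and adipocyte RNA in this difference was not tested. The log2 ratio of *Fabp4* exceeded that of *Cd36* by 1.12 (1.07 to 1.17) in adipocyte-like nuclei and was below it in endothelial-like nuclei (-0.38, -0.49 to -0.27). The 2 lipoprotein receptors did not differ in adipocyte-like nuclei beyond counting error (*Lrp1* over *Vldlr* 0.02, -0.10 to 0.13), while in macrophage-like nuclei *Lrp1* exceeded *Vldlr* by 0.99 (0.39 to 1.60). *Vldlr* did not exceed the T cell-like level in macrophage-like nuclei. Under the marker gate on single nuclei the macrophage log2 ratio was 0.40 for *Vldlr* and 0.02 for *Lrp1*, so this difference did not hold there.

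Within the adipocyte-like nuclei the 9 genes divided the clusters. Cluster 9, led by *Slc7a10*, *Cyp2e1* and *Trhde*, had the most *Slc27a1* and *Lpl* (1127 and 2330 CPM) and, in the *Wtap* flox/flox library, the most *Lrp1* (757 CPM, 484 CPM in the other library). *Vldlr* was low there (142 and 117 CPM) and in cluster 11 (162 and 154 CPM), beside 298 and 311 CPM in cluster 0. *Angptl4* did not differ between the libraries there beyond counting error (359 and 331 CPM, log2 ratio -0.11, -0.45 to 0.24), whereas in cluster 0 it had 453 and 694 CPM (0.62). Cluster 11, with interferon-induced genes among its leading genes, also showed little difference in *Angptl4* (0.17, -0.14 to 0.49). The median log2 ratio of the 9 genes in adipocyte-like nuclei was 0.27 without cluster 9. It was 0.50 without cluster 2, which had the highest share of mitochondrial UMIs among the 5 clusters, 11.1% and 20.5%.

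**Figure D4:**
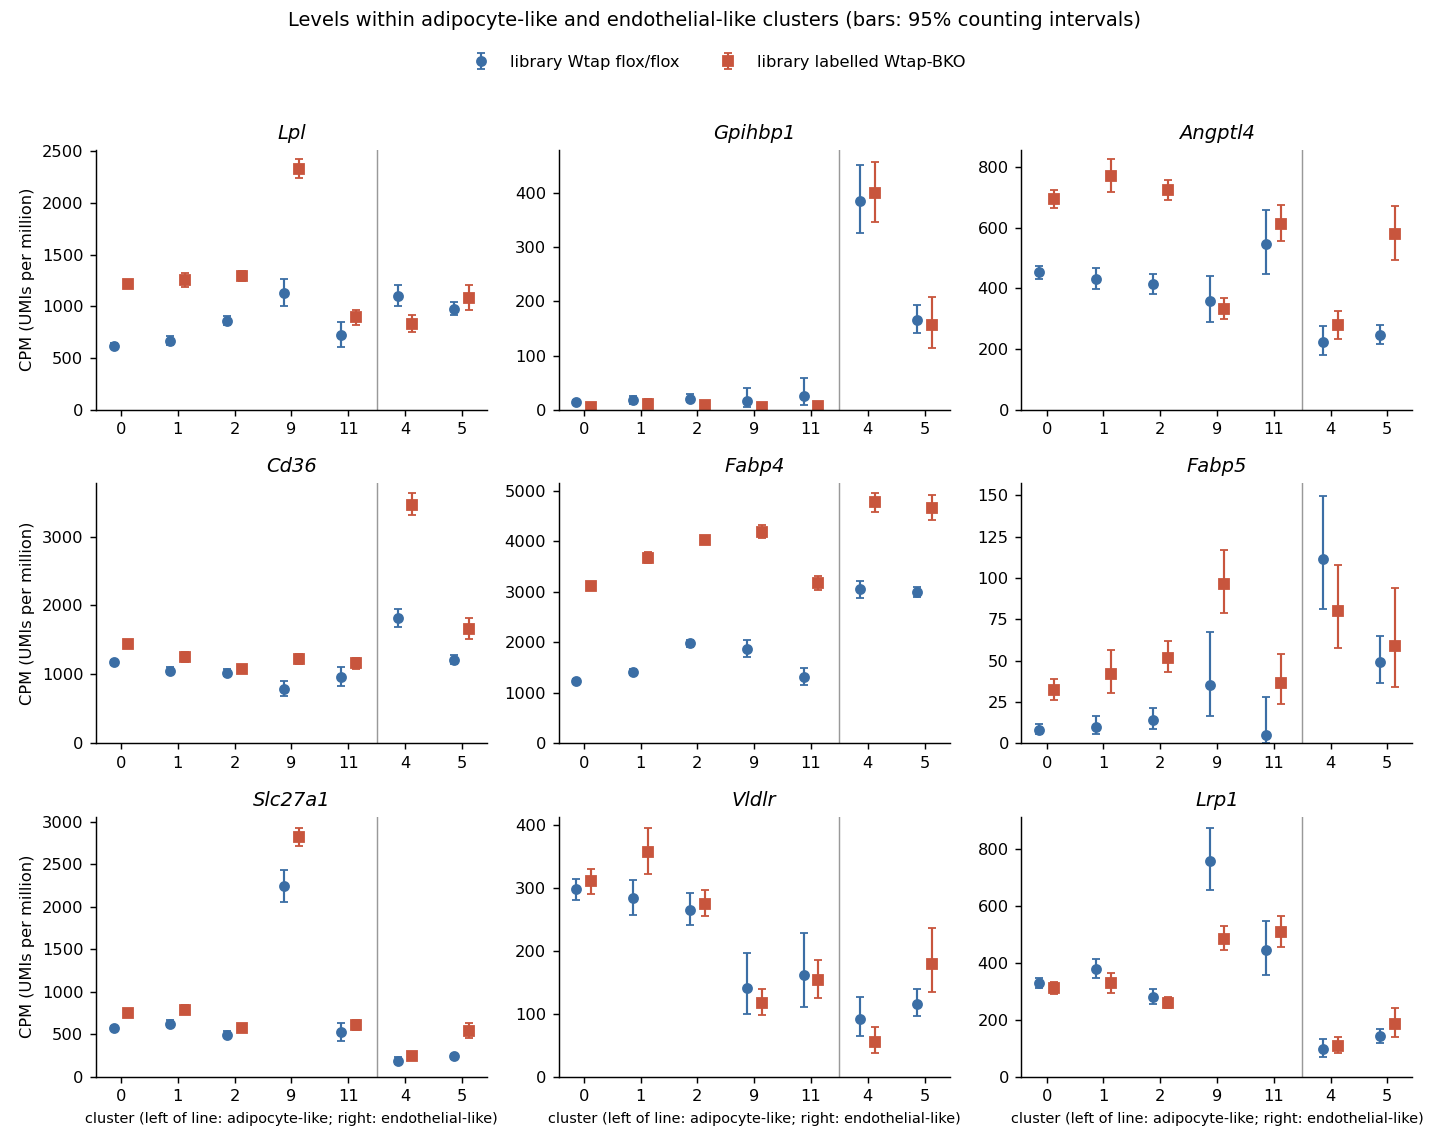
Level of each gene in CPM (vertical axis from 0) in the 5 adipocyte-like clusters, left of the line, and the 2 endothelial-like clusters, right of it, with a circle for the *Wtap* flox/flox library, a square for the library labelled *Wtap*-BKO and bars for 95% counting intervals. Cluster 9 is high for *Slc27a1* (2238 and 2818 CPM) and *Lpl*, and within endothelial-like clusters the 2 libraries overlap for *Gpihbp1* but not for *Cd36*.

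Endothelial-like nuclei of both libraries were clustered again to see which vessel cells carried the genes. Sub-cluster 0 (349 and 359 nuclei) and sub-cluster 4 (4 and 123 nuclei, with *Gbp2* among its leading genes) were capillary-like by 3 and 4 of the 5 capillary markers. Sub-cluster 0 also had 2 arterial and 2 venous markers past the same threshold, and sub-cluster 4 had 1 arterial marker. In sub-cluster 0 *Gpihbp1* had 375 and 411 CPM in the 2 libraries (log2 ratio 0.13, -0.27 to 0.55) and *Cd36* 1983 and 3562 CPM (0.84, 0.69 to 1.01). In sub-cluster 4 the nuclei labelled *Wtap*-BKO had 428 CPM of *Gpihbp1* and 4291 CPM of *Cd36*. Sub-cluster 1 (357 and 113 nuclei), with no vessel type marker past the threshold, was the one with an interval above 0 for *Gpihbp1*, at 277 and 540 CPM (log2 ratio 0.97, 0.42 to 1.49), beside 1271 and 3172 CPM of *Cd36*. Because almost all nuclei of sub-cluster 4 came from 1 library, it may be that library rather than a type. Lymphatic-like nuclei (11 in all, 4 of 5 lymphatic markers) had 0 *Gpihbp1* UMIs among 14925 UMIs, and *Cd36* at 335 CPM (109 to 782). The 0 allows up to 247 CPM of *Gpihbp1* by the exact interval, which does not set these nuclei apart from the 228 CPM of all endothelial-like nuclei in the *Wtap* flox/flox library. Sub-cluster 2 (296 and 99 nuclei) had 6369 CPM of adipocyte markers together with 419 CPM of *Slc27a1*, 188 CPM of *Vldlr* and 113 CPM of *Gpihbp1*, and whether it held mixed droplets was not tested.

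The share of each gene's UMIs by class combines the level with the number of nuclei. Adipocyte-like nuclei held most UMIs of every gene but *Gpihbp1* and, in the *Wtap* flox/flox library, *Fabp5*, from 57.1% (*Fabp4*) to 86.1% (*Slc27a1*) in the *Wtap* flox/flox library. These nuclei gave 70.3% and 59.7% of all UMIs in the 2 libraries, so a majority alone does not set a gene apart. In the *Wtap* flox/flox library *Fabp4* and *Lpl* (65.2%) lay below that share and *Cd36* (71.6%) near it. The endothelial share was smaller in the library labelled *Wtap*-BKO for *Fabp4* (22.1% and 8.38%) and *Lpl* (17.6% and 4.53%), and less so for *Cd36* (16.7% and 14.3%). Macrophage-like nuclei held more in that library, 13.5% of *Lrp1* UMIs against 2.66% and 8.81% of *Cd36* UMIs against 2.35%, as did fibroblast-like nuclei for *Lpl* (10.3% against 3.78%). The shares of the classes in all UMIs moved in the same way, from 2.94% to 13.05% for macrophage-like nuclei.

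**Figure D5:**
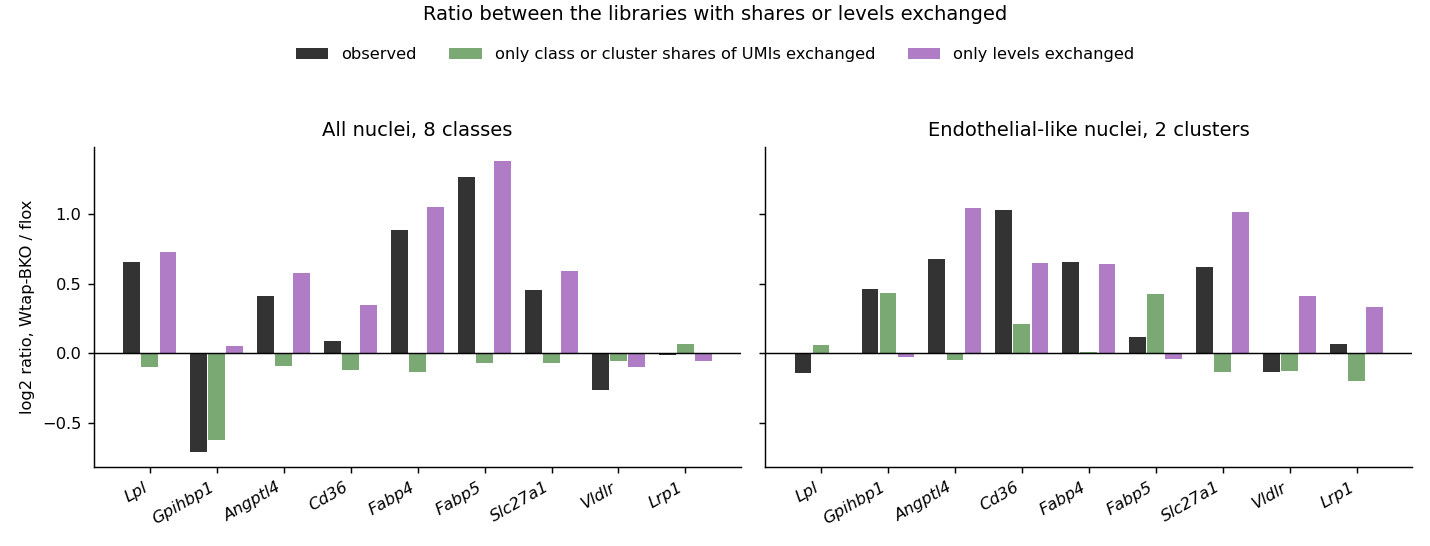
Log2 ratio (vertical axis, where a value above 0 is higher in the library labelled *Wtap*-BKO) for each gene, as observed, with only the shares of UMIs of classes or clusters exchanged, and with only the levels within them exchanged. For *Gpihbp1* the bar for shares nearly equals the observed one in all nuclei (-0.62 and -0.71) and in endothelial-like nuclei (0.44 and 0.46), and for *Fabp4* the bar for levels does so in endothelial-like nuclei.

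The other genes of the pathway were followed as 6 lists with 82 genes, counted where a gene had at least 20 UMIs. The counts in adipocyte-like nuclei stand beside 14.7% of all genes at least 2-fold higher and 4.27% lower, and with lists this short a share near those is no result about the list. In adipocyte-like nuclei 12 of 17 genes of intravascular lipolysis were measured, of which 2 were at least 2-fold higher in the library labelled *Wtap*-BKO and 1 at least 2-fold lower, with a median log2 ratio of -0.44 beside 0.07 over all genes. *Angptl8*, of the same family as *Angptl4*, was higher (7.66 and 23.8 CPM), and *Apoc1* (96.1 and 52.5 CPM) and the proprotein convertase gene *Pcsk6* (148 and 86.8 CPM) were lower. Of 11 genes of fatty acid transport, binding and activation, 1 was higher and 2 lower (median -0.34). The acyl-CoA synthetase gene *Acsl1* had 4823 and 3522 CPM, *Slc27a2* 395 and 190 CPM and *Dbi*, for the acyl-CoA binding protein, 239 and 536 CPM. The 6 caveolae genes measured, which shape the membrane pits in which CD36 resides, all had log2 ratios above 0 (median 0.68, 2 past 2-fold), with *Cavin1* at 60.9 and 182 CPM. Of 18 nuclear receptors and transcription factors none was 2-fold higher and 3 were lower, with a median of -0.17. The 3 were *Pparg* (2873 and 1347 CPM), *Ppargc1a* (986 and 404 CPM) and *Foxo1* (927 and 391 CPM). Lipoprotein receptors and their trafficking genes (11 measured) had 2 higher, none lower and a median of 0.42, and the 4 measured regulators of endothelial fatty acid transport had none past 2-fold and a median of -0.28. *Pparg* and *Ppargc1a* were known to be lower in these nuclei when the lists were written.

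In endothelial-like nuclei the genes of fatty acid transport, binding and activation had a median log2 ratio of -0.73 over 9 genes beside 0.35 over all genes, with 3 past 2-fold lower, beside 2.71% of all genes, among them *Fabp3* (245 and 89.7 CPM). The caveolae genes *Cav1* (529 and 795 CPM), *Cavin1* (158 and 308 CPM) and *Cavin2* (228 and 373 CPM) were higher by total UMIs, as was *Meox2* (65.9 and 115 CPM), a transcription factor that drives fatty acid transport genes in heart capillaries. None of the 5 caveolae genes measured was past 2-fold, and their median log2 ratio was 0.59 beside 0.35 over all genes. Median-of-ratios size factors lowered every endothelial log2 ratio by 0.46. By total UMIs these ratios were 0.59 for *Cav1*, 0.96 for *Cavin1*, 0.71 for *Cavin2* and 0.81 (0.38 to 1.24) for *Meox2*. *Vegfb*, of the VEGF family, had 54.6 and 27.0 CPM. The lipoprotein genes *Apoe* (684 and 306 CPM) and *Apoc1* (169 and 43.0 CPM) were lower. In macrophage-like nuclei 3 of the 12 measured lipoprotein receptor and trafficking genes were 2-fold higher and none lower, beside 12.3% and 6.31% of all genes, with a median log2 ratio of 0.61 beside 0.07, while *Slc27a2* had 237 and 46.2 CPM. In fibroblast-like nuclei *Acsl1* had 1581 and 824 CPM and *Cavin2* 53.3 and 110 CPM. *Slc27a2*, *Acsl1* and *Ppargc1a* had their highest levels of these 4 classes in adipocyte-like nuclei. Their levels in the other classes were lower in the library labelled *Wtap*-BKO, as was the share of adipocyte markers found there, whose part was not tested.

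The genes whose levels were most like each member over 14 points (7 classes in 2 libraries, 7217 genes compared) are given as a description, since the points share libraries and depth. *Gpihbp1* was most like *Aqp1* (r = 0.97), the water channel of capillary endothelium, and *Cd36* most like *F11r* (0.94) and the caveolar genes *Cavin2* (0.90) and *Cav1* (0.89). *Angptl4* was most like the lipase gene *Lipe* (0.94), *Slc27a1* most like *Acacb* (0.96) and the adrenergic receptor gene *Adrb3* (0.95), and *Vldlr* most like *Akap1* (0.98). *Fabp4* was most like *Chchd2* (0.94) and *Lpl* most like *Slc25a39* (0.90), both of which encode mitochondrial proteins. The 7 classes include the unnamed cluster led by mitochondrially encoded genes, where *Fabp4* and *Lpl* had their highest levels. The part of this cluster in these values was not tested. *Fabp5* was most like *Rnasek* (0.86) and *Lrp1* most like *Rnd3* (0.90). Among the 9 genes themselves, r was highest for *Angptl4* and *Slc27a1* (0.88) and for *Lpl* and *Fabp4* (0.80).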

How the data were processed

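Nuclei isolated from frozen iBAT were profiled by 10x Genomics 3′ single-nucleus RNA sequencing, 1 library per genotype with 4 mice pooled. The deposited values were raw UMI counts per gene and nucleus, which the authors had made with Cell Ranger (5.0.0 per the file headers) on mm10 per the submitters' processing notes. Whether intronic reads were counted is not given in the sources used here. The authors removed barcodes with fewer than 500 UMIs, and the remaining barcodes were all used. A symbol listed more than once (38 symbols) was taken at its earlier entry.

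Nuclei were clustered after the study's methods in Seurat 5.3.0 (R 4.3.3): log-normalized counts, 2000 variable features, integration of the libraries by canonical correlation, clustering at resolution 0.5 over 20 PCs, with the 9 genes and all genes of the pathway lists left out of the variable features. A cluster was named when at least 3 of its markers reached 10 UMIs and a CPM 2 times that of the remaining nuclei. Adipocyte-like clusters needed at least 50% of the 12 adipocyte markers at 1.5 times the CPM of the named clusters. These thresholds were set after the data were seen. Scrublet in scanpy 1.11.5 called 3 and 0 doublets and was taken not to have worked. The nuclei with the highest scores (721 and 616) were removed as an alternative.

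UMIs were summed per library and class and given as CPM, with exact Poisson intervals for levels, exact conditional intervals for ratios, and exact binomial intervals for shares (95%, Python 3.11.15, scipy 1.17.1). Classes under 50 nuclei in a library were left out. A count of 0 was read as an upper limit of 3 UMIs. Genes were compared where the libraries summed to 20 UMIs or more, and 2-fold was the threshold for counts of genes. No test between genotypes was possible. The procedure was tested on simulated data for each class: in adipocyte-like nuclei it placed 99.0% of genes simulated at 4-fold past 2-fold, with 1.28% of unchanged genes. Unchanged genes past 2-fold were more frequent in the other classes, with 2.87% in endothelial-like, 6.87% in macrophage-like and 5.07% in fibroblast-like nuclei. Counting error alone can thus place that share of genes past 2-fold.

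The 9 genes and the lists were chosen with earlier results of these data known. From the 6 lists, at most 3 genes per list and class were eligible to be named, those with the largest absolute log2 ratio among genes of at least 20 CPM in 1 library. The 3 genes most like each member were taken by Pearson correlation of log2(CPM + 10) among genes of at least 50 CPM, and 1 to 3 of them are named. Coordinates are from RefSeq (GRCm38.p6), where all 9 symbols matched.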

Additional observations from a re-analysis of the deposited data

How the results depend on the processing

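No paired analysis was possible because each genotype had 1 library and no replicate. Over the alternatives, 44 recomputed medians of the 9 genes stayed within the counting interval of the gene at the median, 8 moved beyond it and 1 called above 0 changed sign. Of the single-gene log2 ratios, 355 stayed within counting error, 108 moved beyond it and 6 with an interval that left out 0 changed sign. In adipocyte-like nuclei the median was 0.37 with nuclei of over 5% mitochondrial UMIs removed and 0.69 with mitochondrially encoded genes and *Gm42418* left out of the totals, and it was 0.27 without cluster 9 and 0.50 without cluster 2, both chosen after seeing the data. *Lpl*, *Angptl4*, *Cd36*, *Fabp4*, *Fabp5*, *Slc27a1* and *Gpihbp1* kept their direction there under all 13 alternatives. In endothelial-like nuclei the median turned to -0.041 with nuclei of over 5% mitochondrial UMIs removed, where *Slc27a1* turned to -0.10. It was 0.0044 with median-of-ratios size factors and 0.17 in cluster 4 alone. *Lpl* turned to 0.026 under the marker gate on single nuclei and to 0.14 in cluster 5 alone, where *Gpihbp1* turned to -0.093, and cluster 4 or 5 alone was likewise chosen after seeing the data. In macrophage-like nuclei the median was 0.72 under the gate, where *Vldlr* turned to 0.40, and 0.97 after subtraction of the adipocyte level scaled by the adipocyte markers found in the class, which left 7 genes. In fibroblast-like nuclei *Lrp1* turned to 0.040 with a minimum of 1000 UMIs, and the median, 0.39, was -0.31 with nuclei of over 5% mitochondrial UMIs removed, -0.03 without the nuclei of a cluster led by Schwann cell genes (chosen after seeing the data) and -0.00086 with 8 PCs. Removal of the 20 shared barcodes and of the highest doublet scores moved no median beyond that interval. The cause of these changes was not tested.

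The number of genes past 2-fold followed the minimum count, as fewer or more genes were compared. With at least 100 UMIs, 20 UMIs and no minimum it was 1232, 2669 and 4540 in adipocyte-like nuclei, 475, 1640 and 3505 in endothelial-like, 589, 1854 and 3668 in macrophage-like (889 under the marker gate) and 289, 1413 and 2767 in fibroblast-like nuclei. Depth limited *Gpihbp1* outside endothelial-like nuclei and *Fabp5* in all classes of the *Wtap* flox/flox library, where 2 to 124 UMIs stood behind a value.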
